A study of Mus musculus with 12 samples.

Results

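Secreted Wnt modulators and 2 Wnt ligands that act on fat cell formation were described across 12 arrays of mouse adipocyte cultures. The group holds 9 genes of the 22180 genes tested: the secreted frizzled-related proteins Sfrp1, Sfrp2, Sfrp4 and Sfrp5, the dickkopf genes Dkk2 and Dkk3, the Wnt inhibitory factor Wif1, and the ligands Wnt5a and Wnt10b. They were chosen by name, and each gene is represented by the brightest probe set that maps to its symbol alone. Sfrp4 was chosen for its fall after 4-hydroxytamoxifen, so all its differences are given as a description, with no test, and the other 8 genes are counted without it.

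Wnt proteins are secreted lipid-modified ligands that bind Frizzled receptors with the co-receptors Lrp5 and Lrp6 and so stabilise beta-catenin, or act through Ror and Ryk receptors without it. In fat, Wnt/beta-catenin signalling is known to hold precursors in an undifferentiated state. Secreted modulators set how much ligand reaches the receptors: frizzled-related proteins and Wif1 bind Wnts outside the cell, and dickkopf proteins act on the co-receptors.

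All 12 arrays measured adipocytes grown from inguinal adipose precursor cells of the genotype R26Cre/Prdm16floxEx9. In these cells a Cre recombinase at the Rosa26 locus can delete a floxed part of Prdm16. This gene encodes a transcriptional regulator needed for brown and beige fat character. During growth the precursors were given ethanol (EtOH) or 1 uM 4-hydroxytamoxifen (4OHT), the ligand used to switch on inducible Cre, for 3 days. A hormone cocktail then started differentiation, and 1 uM rosiglitazone, a drug that activates PPARgamma, the master regulator of fat cell formation, was added in the groups EtOH_Rosi and 4OHT_Rosi but not in EtOH and 4OHT. Each group has 3 arrays. Every group carries the Cre and the floxed allele, and cells without Cre that received 4OHT are not among the groups, so Prdm16 loss and other effects of 4OHT or of Cre cannot be told apart. The labels do not give the sex or age of the mice, or whether the 3 arrays of a group are separate cultures. The spread on which each p-value rests may therefore be technical.

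Levels are log2 probe set values, whose median over the tested genes was 6.60, and a difference of 1 is a 2-fold change. Whether the arrays of 2 groups overlap is given as a description only, as the share of all genes without overlap was not counted. Of the 14 adipocyte markers measured, such as Adipoq, Fabp4 and Plin1, the mean level lay between 11.58 and 11.91 on every array. Markers of other cells were also present: over their lists, the EtOH arrays had mean levels of 9.25 to 9.30 for adipose precursor, 8.48 to 8.67 for smooth muscle, 8.87 to 9.03 for endothelial and 8.42 to 8.65 for macrophage and leukocyte markers. The targeted gene Prdm16 fell after 4OHT with rosiglitazone (-0.71 ± 0.10, SE, 3 arrays a group, limma adjusted p = 0.000646), while without it the difference was -0.17 ± 0.10 (limma adjusted p = 0.455). Where this probe set lies relative to the floxed part is not given in the annotation used, so these values may not report the deletion itself. 4OHT_Rosi 3 stood apart from the other arrays on the third principal component, at 16.03 against -8.95 to 7.98.

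Stretches upstream of 3 of the genes are shown because Sfrp2 and Dkk2 both fell under rosiglitazone after ethanol and Sfrp5 passed in no comparison. They are the 250 bases before the RefSeq transcription start (GRCm38.p6), in lower case, with a TATAAA match in capitals. Sfrp2 lies at chr3:83766071-83766320 on the + strand, Dkk2 at chr3:132085042-132085291 on the + strand and Sfrp5 at chr19:42202253-42202502 on the - strand.
Sfrp2: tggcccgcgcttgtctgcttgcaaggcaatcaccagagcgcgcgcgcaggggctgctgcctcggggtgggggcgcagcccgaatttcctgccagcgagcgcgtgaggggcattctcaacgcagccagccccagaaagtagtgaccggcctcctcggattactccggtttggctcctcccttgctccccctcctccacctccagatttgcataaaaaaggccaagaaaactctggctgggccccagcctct
Dkk2: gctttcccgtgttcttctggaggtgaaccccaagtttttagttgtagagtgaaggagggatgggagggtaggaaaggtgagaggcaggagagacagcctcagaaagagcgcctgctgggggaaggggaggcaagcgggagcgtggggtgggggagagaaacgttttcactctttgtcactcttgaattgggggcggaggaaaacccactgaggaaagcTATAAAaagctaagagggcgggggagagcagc
Sfrp5: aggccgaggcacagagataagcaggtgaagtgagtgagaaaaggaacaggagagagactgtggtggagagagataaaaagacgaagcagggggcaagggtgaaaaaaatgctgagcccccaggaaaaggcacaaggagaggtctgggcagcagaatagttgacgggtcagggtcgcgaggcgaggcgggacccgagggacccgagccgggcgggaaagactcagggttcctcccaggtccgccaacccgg

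Both strands were searched for 3 motifs that do not overlap in these windows. The first was TATAAA, the TATA box. Another was AGGTCA, the half-site of nuclear receptors such as PPARgamma. The last was ATCAAAG, a site of the TCF/LEF factors that act with beta-catenin. TATAAA begins at -32 in Dkk2, relative to the start, where a TATA box is usually found. Neither Sfrp2 nor Sfrp5 held any of these motifs, and Dkk2 held only the TATAAA. Among 32851 RefSeq windows of the same length, 12.4% held TATAAA, 14% AGGTCA and 3.21% ATCAAAG, at any place and on either strand. The share with TATAAA at the place and strand of the Dkk2 match was not counted. The Sfrp2 window had 16 CpG dinucleotides, that of Sfrp5 13 and that of Dkk2 7, against a median of 6 over all windows. Of the other genes with a window, Wif1, which passed in no comparison, had the letters TATAAA on the opposite strand at -232 and 21 CpG dinucleotides, and Wnt10b had no match and 14. A match, or none, describes these letters only.

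The rosiglitazone comparisons asked what PPARgamma activation changed in these genes. Sfrp1, Sfrp2, Dkk3 and Dkk2 fell after ethanol, and Sfrp1, Sfrp2 and Dkk3 fell after 4OHT too. Sfrp4 was lower as well. Wnt5a rose after 4OHT, and Sfrp5, Wif1 and Wnt10b passed the test in neither comparison. After ethanol 4 of the 8 genes tested fell and 0 rose, where 30.7% of all genes passed the test, 16.3% lower and 14.4% higher. After 4OHT 3 of the 8 fell and 1 rose, where 23.7% of all genes passed, 12.1% lower and 11.6% higher. The median difference of the 8 was -0.31 after ethanol, against 0.013 over all genes, and -0.12 after 4OHT, against 0.00 over all genes. Dim genes are included in the shares of all genes. The 4 that fell after ethanol were brighter than 50.5% (Dkk2) to 87.4% (Sfrp1) of tested genes. Genes at or above the 50th percentile of level, fitted alone, gave 3403 lower after ethanol, where all genes gave 3623. After 4OHT they gave 2679, where all genes gave 2693. The part of level in the count of falls was not tested. In cultures of mixed cells, fewer cells of a type and less RNA per cell cannot be told apart.

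**Figure D1:**
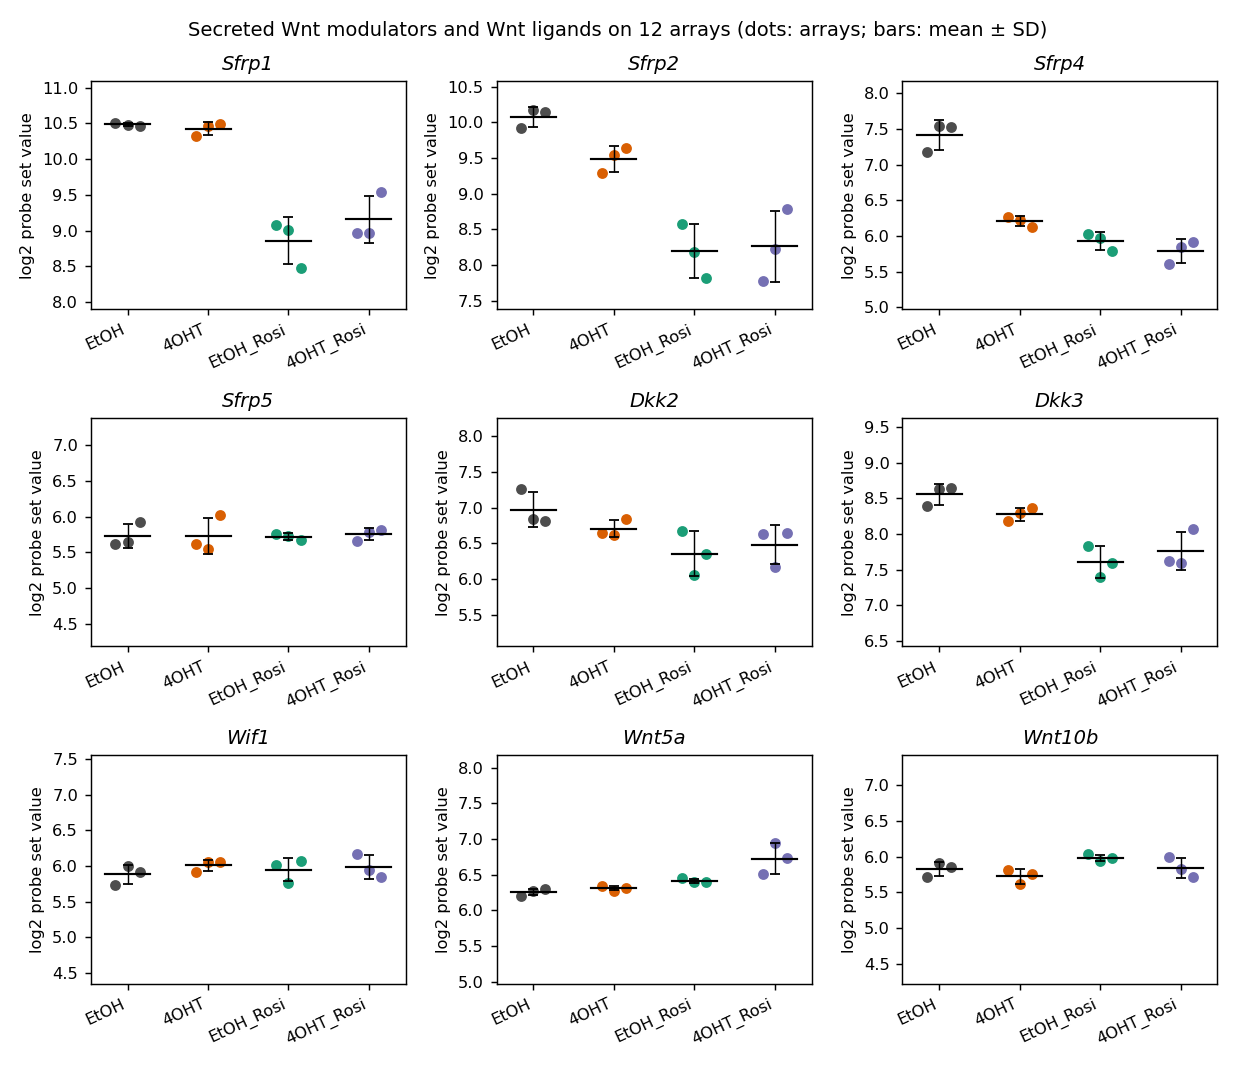
Log2 probe set value (vertical axis, each panel spanning 3.2 log2 units at its own level) of the 9 genes on the 3 arrays of EtOH, 4OHT, EtOH_Rosi and 4OHT_Rosi; dots are arrays and bars are the mean ± SD. Sfrp1, Sfrp2 and Dkk3 lie lower on all 6 rosiglitazone arrays, Sfrp4 is high on the EtOH arrays only, and Sfrp5 and Wif1 stay within 5.54 to 6.17.

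Sfrp1 encodes a frizzled-related protein known from cultured cells to favour fat cell formation. Its log2 level was 10.51, 10.48 and 10.47 on the EtOH arrays and 10.32, 10.47 and 10.49 on the 4OHT arrays. With rosiglitazone it was 9.08, 9.01 and 8.48 in EtOH_Rosi and 8.97, 8.97 and 9.54 in 4OHT_Rosi. The rosiglitazone arrays all lay below those without it, while the groups that differ by 4OHT overlapped. The fall was 3.10-fold after ethanol (-1.63 ± 0.16, SE, limma adjusted p = 3.78e-06) and 2.41-fold after 4OHT (-1.27 ± 0.16, limma adjusted p = 5.2e-05). The order of the group means was EtOH, 4OHT, 4OHT_Rosi and EtOH_Rosi, and only the step between 4OHT and 4OHT_Rosi exceeded the spread.

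Sfrp2, a frizzled-related protein made by stromal and fibroblast-like cells, fell more under rosiglitazone after ethanol than any of the other 8 genes in log2 terms. Its level was 9.92, 10.18 and 10.14 in EtOH, and 9.29, 9.55 and 9.64 in 4OHT. In EtOH_Rosi it was 8.58, 8.19 and 7.82, and in 4OHT_Rosi 7.78, 8.23 and 8.78. The EtOH arrays were all above the 4OHT arrays, and these all above the rosiglitazone arrays, whose own groups overlapped and had the widest spread of the 9 genes (SD 0.38 and 0.50). Under rosiglitazone it fell 3.69-fold after ethanol (-1.88 ± 0.22, limma adjusted p = 1.63e-05) and 2.35-fold after 4OHT (-1.23 ± 0.22, limma adjusted p = 0.0009).

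A second, dimmer Sfrp2 probe set (17406275), with group means of 5.51 to 5.81, disagreed in size. It fell by 0.22 ± 0.06 under rosiglitazone after ethanol (limma adjusted p = 0.0329, in a fit of all probe sets), and differed by -0.06 ± 0.06 after 4OHT (limma adjusted p = 0.665). Values of Sfrp2 are those of the brighter probe set (17398557) unless stated.

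Dkk3 encodes a divergent dickkopf protein whose action on the Wnt co-receptors is less clear than that of its relatives. It measured 8.39, 8.63 and 8.65 in EtOH, 8.18, 8.29 and 8.36 in 4OHT, 7.84, 7.40 and 7.59 in EtOH_Rosi, and 7.62, 7.59 and 8.07 in 4OHT_Rosi. Each group without rosiglitazone lay above its counterpart with it. The fall was 1.93-fold after ethanol (-0.95 ± 0.13, limma adjusted p = 7.9e-05) and 1.43-fold after 4OHT (-0.52 ± 0.13, limma adjusted p = 0.0111). The second call did not hold without 4OHT_Rosi 1 (limma adjusted p = 0.0526) or 4OHT_Rosi 2 (limma adjusted p = 0.0538).

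Dkk2, which binds Lrp5 and Lrp6, had levels of 7.26, 6.84 and 6.82 in EtOH and 6.67, 6.05 and 6.35 in EtOH_Rosi, which did not overlap. After 4OHT, levels of 6.65, 6.62 and 6.84 without rosiglitazone overlapped those of 6.63, 6.17 and 6.65 with it. The fall after ethanol was 0.62 ± 0.17 on the log2 scale (1.53-fold, limma adjusted p = 0.0106), but the call ended without EtOH 1 (-0.47, limma adjusted p = 0.056) or EtOH_Rosi 2 (-0.46, limma adjusted p = 0.0553). After 4OHT the difference was -0.22 ± 0.17 (limma adjusted p = 0.408), with a 95% interval of -0.58 to 0.14 that still holds a moderate fall.

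Sfrp4, a frizzled-related protein also known as an adipokine, was high in 1 group. Its level was 7.17, 7.54 and 7.52 in EtOH, 6.27, 6.22 and 6.13 in 4OHT, 6.02, 5.97 and 5.79 in EtOH_Rosi and 5.60, 5.85 and 5.92 in 4OHT_Rosi. Either treatment alone went with a lower level, and every EtOH array lay above all treated arrays. Described without a test, the difference from EtOH was -1.2 ± 0.11 with 4OHT alone (2.30-fold), the values for which the gene was chosen, and -1.48 ± 0.11 with rosiglitazone alone (2.80-fold). On top of 4OHT, rosiglitazone went with a further -0.42 ± 0.11, and on top of rosiglitazone, 4OHT went with -0.14 ± 0.11. The difference of the 4OHT differences was 1.07 ± 0.15, which contains the difference for which the gene was chosen. In the order EtOH, 4OHT, EtOH_Rosi and 4OHT_Rosi, the last 2 groups overlapped. The 3 treated groups lie below the median level of tested genes, and the table gives no detection call, so how much further Sfrp4 could have fallen was not tested.

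Over the 12 arrays, the genes whose pattern was most like that of Sfrp4, by Pearson's r among 1424 genes with a mean at or above the median and a range of at least 1 log2 unit, were Ldb2 (r = 0.983), Mmp12 (0.981), Reg1 (0.974) and Nuf2 (0.973). The arrays of a group share their treatment, so these values describe the group pattern and carry no p. Ldb2, which encodes a LIM-domain binding protein, had group means of 9.22, 8.47, 8.17 and 8.08 in the order above. The macrophage metalloelastase Mmp12 had 8.37, 7.26, 6.98 and 6.88, the kinetochore gene Nuf2 7.92, 7.18, 6.81 and 6.67, and Reg1 8.76, 6.45, 6.06 and 5.79. Every group mean of Reg1 but that of EtOH lay below the median level of tested genes, so it entered the ranking through EtOH alone. Since Sfrp4 was chosen for its fall after 4OHT, these genes repeat the pattern it was chosen for and are no support for it.

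Of the ligands, Wnt5a acts mainly through beta-catenin-independent receptors. It measured 6.21, 6.27 and 6.30 in EtOH, 6.34, 6.28 and 6.32 in 4OHT, 6.45, 6.40 and 6.40 in EtOH_Rosi, and 6.51, 6.94 and 6.73 in 4OHT_Rosi. The last group was above all others, with an SD of 0.22 against 0.03 to 0.05. Rosiglitazone raised Wnt5a 1.33-fold after 4OHT (0.41 ± 0.09, limma adjusted p = 0.00268). After ethanol the difference was 0.16 ± 0.09 (limma adjusted p = 0.206), with arrays that did not overlap.

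Wnt10b, the ligand best known for holding back fat cell formation through beta-catenin, had group means between 5.72 ± 0.10 (SD, n = 3) in 4OHT and 5.98 ± 0.05 in EtOH_Rosi. Its rosiglitazone difference was 0.15 ± 0.08 after ethanol (95% interval -0.02 to 0.33) and 0.12 ± 0.08 after 4OHT (-0.05 to 0.29). Sfrp5, an adipokine that binds Wnt5a, had group means of 5.72 to 5.75, and its rosiglitazone differences had intervals of -0.26 to 0.24 after ethanol and -0.22 to 0.27 after 4OHT. Wif1 had group means of 5.88 to 6.01 and intervals of -0.15 to 0.29 and -0.25 to 0.19. All 3 genes lay below the median level of the tested genes on every array, and neighbours in the order of their group means overlapped. The EtOH_Rosi arrays of Wnt10b (5.94 to 6.03) all lay above its EtOH arrays (5.72 to 5.91), but the difference did not pass (limma adjusted p = 0.187).

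**Figure D2:**
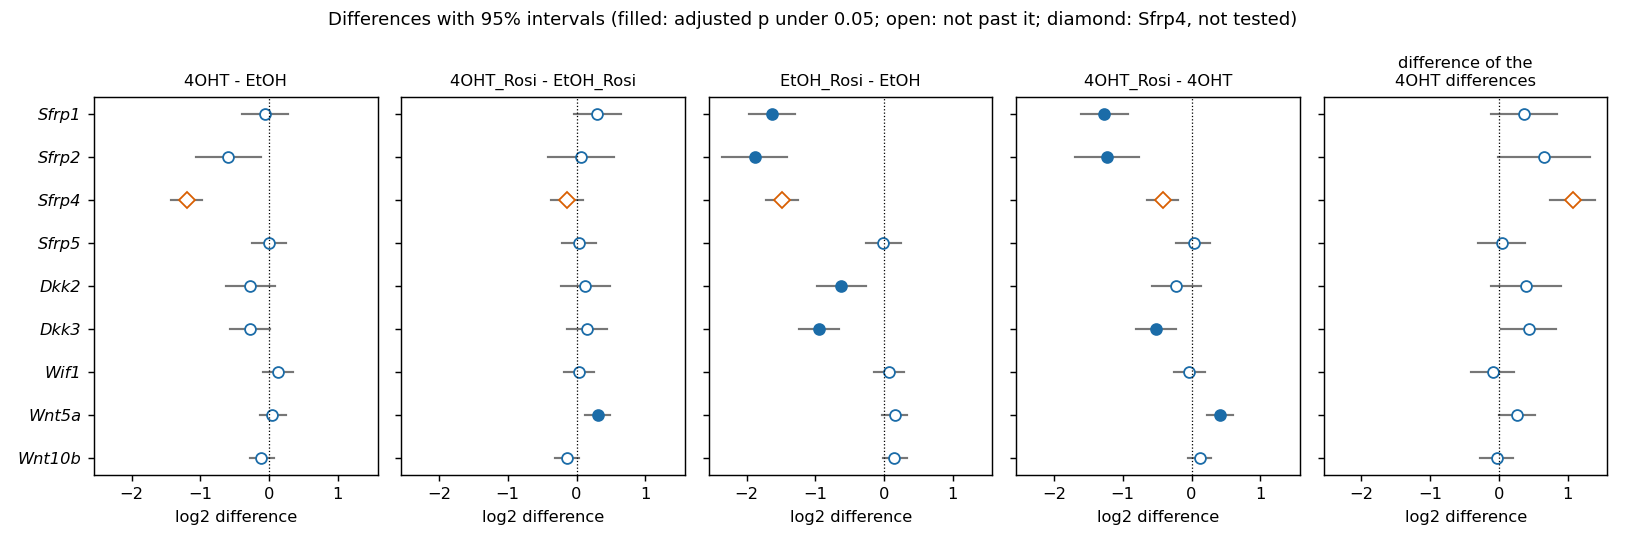
Difference in log2 value (horizontal axis) for the 9 genes in 4 comparisons between groups and for the difference of the 4OHT differences; points are limma estimates from 12 arrays and lines are 95% intervals. Filled points passed an adjusted p of 0.05, and the Sfrp4 diamonds were not tested. In the rosiglitazone comparison after ethanol Sfrp1, Sfrp2, Dkk2 and Dkk3 are filled and left of 0, and after 4OHT Sfrp1, Sfrp2 and Dkk3 are.

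Several marker lists of other cells moved with these falls. Under rosiglitazone after ethanol, where 16.3% of all genes fell and 14.4% rose, 10 of 14 adipose precursor markers fell and 0 rose, as did 10 of 10 smooth muscle, 10 of 10 endothelial and 10 of 15 macrophage and leukocyte markers, while 9 of 14 adipocyte markers rose and 2 fell. Without EtOH 1, 1 precursor marker rose. After 4OHT, where 12.1% of all genes fell and 11.6% rose, the falls were 9, 8, 9 and 8 of the same lists, and 5 adipocyte markers rose and 2 fell, or 1 fell without any 4OHT array, 4OHT_Rosi 1 or 4OHT_Rosi 3. Other lists did not move in this way. After ethanol 0 of 7 epithelial markers passed, or 1 fell without EtOH 1, EtOH_Rosi 1 or 4OHT_Rosi 3. Of 5 Schwann and neural markers 2 rose and 1 fell, or 2 fell without 4OHT 2. After 4OHT 0 epithelial markers passed, or 1 rose without 4OHT_Rosi 2, and 1 Schwann and neural marker rose and 0 fell. In the adipose precursor list, Pdgfra fell by 1.24 and Cd34 by 1.35 after ethanol. The mean level of that list was 9.25 to 9.32 on the arrays without rosiglitazone, 8.43 to 8.62 in EtOH_Rosi and 8.57 to 8.88 in 4OHT_Rosi. That of smooth muscle markers was 8.48 to 8.67 without rosiglitazone, then 7.68 to 7.96 and 8.11 to 8.39. The lowest value of any probe set was 3.05 and no detection call is given, so these levels cannot show whether a cell type was absent. The part of these shifts in the falls of Sfrp1, Sfrp2, Dkk2 and Dkk3 was not tested.

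Within the rosiglitazone groups, Sfrp1, Sfrp2 and Dkk3 were highest on the same arrays. In 4OHT_Rosi all 3 were highest on array 3, which also had the highest mean of adipose precursor (8.88 against 8.57 and 8.60) and smooth muscle markers (8.39 against 8.13 and 8.11). In EtOH_Rosi all 3 were highest on array 1, again the highest in both marker lists (8.62 and 7.96). Dkk2 (6.65 on 4OHT_Rosi 3 and 6.67 on EtOH_Rosi 1) and Sfrp4 (5.92 and 6.02) were also highest there. Epithelial markers were highest on these arrays as well (7.02 and 6.63), as were macrophage markers (8.09 and 8.13). Endothelial markers were not: they were 8.42 on 4OHT_Rosi 3, against 8.43 on 4OHT_Rosi 2, and 8.21 on EtOH_Rosi 1, the lowest of its group. Adipocyte markers were lowest of their group on 4OHT_Rosi 3 (11.76), and on EtOH_Rosi 1 level with EtOH_Rosi 3 (11.74). Without 4OHT_Rosi 3 the rosiglitazone falls after 4OHT were larger for Sfrp1 (-1.46), Sfrp2 (-1.49) and Dkk3 (-0.67).

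**Figure D3:**
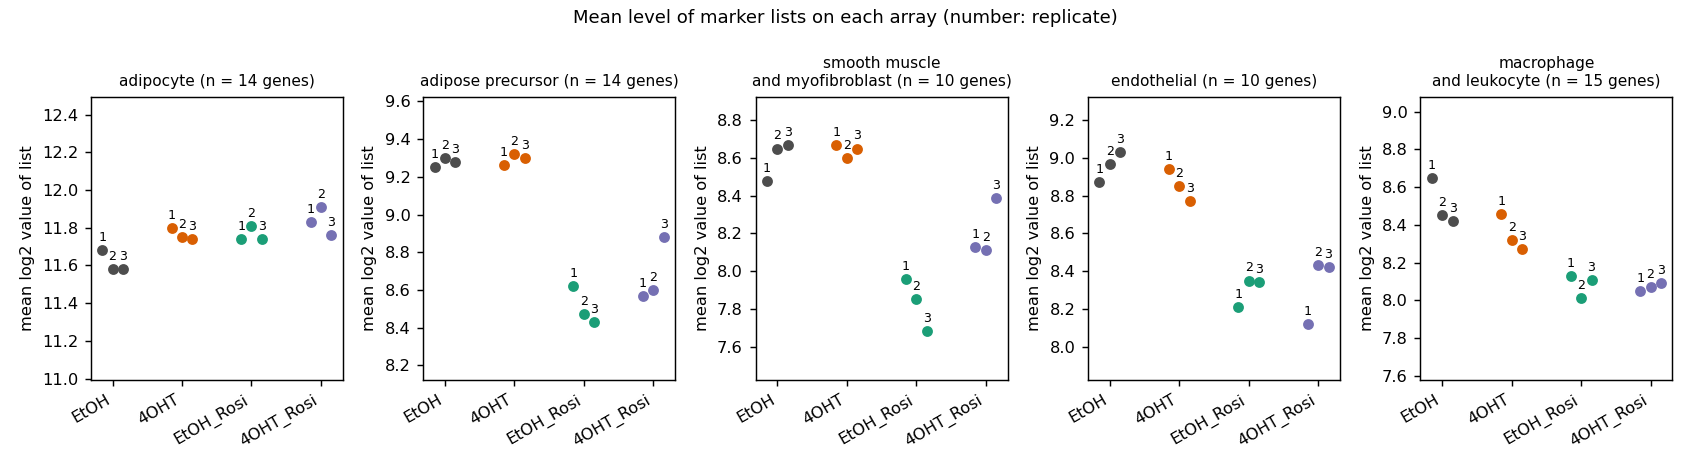
Mean log2 value (vertical axis, each panel spanning 1.5 log2 units) of 5 lists of cell type markers on each array, by group; the number beside a point is the replicate. Adipose precursor, smooth muscle, endothelial and macrophage lists are lower on the 6 rosiglitazone arrays, and 4OHT_Rosi 3 has the highest precursor and smooth muscle means of its group.

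The 4OHT comparisons asked what treatment that can delete Prdm16 changed. Without rosiglitazone none of the 8 genes tested passed the limma test (0 rose and 0 fell, 1 at an unadjusted p under 0.05), where 3.91% of all genes did, 2.13% higher and 1.79% lower. Sfrp2 was closest, at -0.59 ± 0.22 (1.5-fold lower, limma adjusted p = 0.188), with arrays that did not overlap and a 95% interval of -1.06 to -0.11. It passed in a fit of these 2 groups alone (limma adjusted p = 0.0107) and with array weights (-0.67, limma adjusted p = 0.0162). Dkk3, whose arrays did not overlap either, differed by -0.28 ± 0.13 (limma adjusted p = 0.324) and Dkk2 by -0.27 ± 0.17 (limma adjusted p = 0.485). How many of all genes lacked overlap here was not counted, so it adds nothing to these tests. For Sfrp1 the difference was -0.06 ± 0.16, and its interval of -0.40 to 0.28 excludes a fall as large as that under rosiglitazone. Wif1 differed by 0.13 ± 0.10, Wnt10b by -0.11 ± 0.08, Wnt5a by 0.05 ± 0.09 and Sfrp5 by 0.00 ± 0.11, all within the spread of overlapping arrays. 

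Some marker lists moved in this comparison too, where 2.13% of all genes rose and 1.79% fell. The mean of adipocyte markers was 11.58 to 11.68 in EtOH and 11.74 to 11.80 in 4OHT, which did not overlap, with 3 of 14 higher and 1 lower; the 3 rises were 0 without EtOH 2, EtOH 3, 4OHT 1 or 4OHT 2. That of the 5 Schwann and neural markers was 6.44 to 6.49 in EtOH and 5.90 to 6.03 in 4OHT, and 1 of them fell, the neurotrophin receptor gene Ngfr (-2.29 ± 0.16, limma adjusted p = 1.28e-05). The rest of that list did not pass, with Sox10 at -0.1, S100b at -0.07, Mbp at -0.04 and Erbb3 at 0.07. The lower mean is thus mainly that of Ngfr, and the list did not move as a whole. The precursor list overlapped at 9.25 to 9.30 and 9.26 to 9.32, but its members moved in both directions, with Pdgfra at -0.53, Pi16 at 1.02 and Zfp423 at 0.38, all called. Their part in the differences of Sfrp2, Sfrp4 and Dkk3 was not tested.

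With rosiglitazone 1 of the 8 genes rose after 4OHT and 0 fell, where 8.03% of all genes passed, 4.65% higher and 3.38% lower. The gene was Wnt5a, at 0.31 ± 0.09 (1.24-fold, limma adjusted p = 0.0418), with a 95% interval of 0.13 to 0.49. This call ended when any array but 4OHT_Rosi 1 was left out (limma adjusted p from 0.0518 to 0.125), and without 4OHT_Rosi 2 the difference was 0.20. Sfrp1 differed by 0.30 ± 0.16 (95% interval -0.04 to 0.65), and by 0.11 without 4OHT_Rosi 3. Sfrp2 and Dkk3 differed by 0.07 ± 0.22 and 0.15 ± 0.13, which became -0.19 and -0.01 without that array. Wnt10b differed by -0.14 ± 0.08 (95% interval -0.31 to 0.03), and Dkk2, Sfrp5 and Wif1 by 0.13 ± 0.17, 0.03 ± 0.11 and 0.04 ± 0.10.

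The last comparison asked whether the 4OHT difference depended on rosiglitazone. None of the 8 genes tested passed the limma test (0 rose and 0 fell, 1 at an unadjusted p under 0.05), where 1.01% of all genes did, 0.523% higher and 0.482% lower. Dkk3 had the smallest p, at 0.43 ± 0.19 (95% interval 0.03 to 0.83, limma adjusted p = 0.316). Sfrp2 (0.65 ± 0.31, interval -0.01 to 1.32), Dkk2 (0.40 ± 0.23, interval -0.11 to 0.90) and Sfrp1 (0.36 ± 0.22, interval -0.12 to 0.85) were positive as well. For Wnt5a the difference of differences was 0.26 ± 0.12 (interval 0.00 to 0.52, limma adjusted p = 0.364), so its rise after 4OHT is not shown to depend on rosiglitazone. Sfrp5, Wif1 and Wnt10b had values of 0.04, -0.09 and -0.03. The interval of Sfrp2 holds both 0 and values up to 1.32.

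Other genes of the Wnt pathway were taken from 7 lists with 123 distinct gene symbols, of which 118 were found among the tested genes. Under rosiglitazone after ethanol 15 of the 118 rose and 37 fell, which is 12.7% and 31.4% beside 14.4% and 16.3% of all genes, with a median of -0.03. After 4OHT 10 rose and 27 fell, which is 8.47% and 22.9% beside 11.6% and 12.1% of all genes, with a median of -0.01. The counts for single lists below stand against these same shares of all genes. These shares include dim genes and the lists were not matched for level, so the lists are not shown to differ from equally bright genes. Where a pair of differences follows a gene, the first is after ethanol and the second after 4OHT. Without EtOH 2 or EtOH_Rosi 2, 8 rose after ethanol.

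Of the other secreted antagonists and agonists, 6 of 17 fell and 0 rose after ethanol, and 7 fell and 1 rose after 4OHT; the rise was lost without 4OHT 1, 4OHT 2 or 4OHT_Rosi 1. Apcdd1, a membrane-bound Wnt inhibitor and also a target, fell by 1.17 ± 0.06 after ethanol (limma adjusted p = 3.51e-08) and by 0.90 ± 0.06 after 4OHT (limma adjusted p = 4.01e-07). Igfbp4, a binding protein of insulin-like growth factors that can also inhibit Wnt signalling, fell by 1.08 and 1.2. Draxin, a secreted axon guidance protein that can antagonise Wnt signalling, fell by 0.94 after ethanol, and the R-spondin gene Rspo3, which enhances Wnt signalling, by 0.63 after 4OHT. Of 18 Wnt/beta-catenin target genes, 7 fell and 1 rose after ethanol, and 5 fell and 0 rose after 4OHT. Without 4OHT_Rosi 2 or 4OHT_Rosi 3, 1 or 2 of these targets rose after 4OHT. The falls included cyclin D1, Ccnd1 (-1.22 and -0.72), the matricellular gene Ccn5 (-1.15 after ethanol) and the activin antagonist Fst (-0.83 after 4OHT). The rise after ethanol was that of Znrf3 (0.29). Among the targets that passed in neither comparison were Axin2 (0.05 and 0.12), Nkd1 (-0.09 and 0.03) and Rnf43 (0.01 and 0.12). Sp5 (0.09 and 0.19), Lef1 (0.02 and 0.05) and Notum (0.12 and 0.1) did not pass either.

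Of 23 receptors and co-receptors, 10 fell and 4 rose after ethanol, and 7 fell and 4 rose after 4OHT. Ror1, a receptor of Wnt5a, fell by 1.06 ± 0.12 (limma adjusted p = 1.09e-05) and 0.87 ± 0.12 (limma adjusted p = 9.63e-05), and Ror2 by 0.60 after ethanol. Tspan12, a tetraspanin that works with Fzd4, rose by 0.95 and 1.09, and Fzd8 rose by 0.53 after 4OHT. The 4 rises after ethanol were 1 without EtOH 2 or EtOH_Rosi 2 and 2 without EtOH 3. The 7 falls after 4OHT were 3 without 4OHT_Rosi 1 and 4 without 4OHT_Rosi 2.

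Among 5 genes of Wnt release, Trabd2b, a metalloprotease that inactivates Wnts, fell by 1.55 ± 0.09 after ethanol (limma adjusted p = 3.45e-08) and differed by -1.74 ± 0.09 after 4OHT (limma adjusted p = 1.88e-08). Wls, the carrier that brings Wnts to the cell surface, fell by 0.67 after ethanol and by 0.31 after 4OHT, the latter except without 4OHT 2, 4OHT 3, 4OHT_Rosi 1 or 4OHT_Rosi 2. Porcn, the acyltransferase that lipidates Wnts, rose by 0.48 after ethanol. Of 17 other ligands, Wnt16 fell by 0.85 and 0.70. Wnt8b (0.21) and Wnt9b (0.23) rose after ethanol, but 0 such rises were left without EtOH 2 or EtOH_Rosi 2 and 1 without any other array of these groups. Wnt5b rose after 4OHT (0.34), except without 4OHT 1, 4OHT_Rosi 1 or 4OHT_Rosi 3. In the beta-catenin relay 5 of 24 rose and 6 fell after ethanol, with Bcl9 and Tle2 (-0.49 and -0.48) lower and Amer1 (0.33) higher. Without EtOH 1, 3 of these fell. After 4OHT 2 rose and 2 fell: the TCF factor Tcf7l2 fell by 0.26, Amer1 rose by 0.30 and the co-repressor Tle3 by 0.21, the last except without 4OHT 3. The falls were 1 without any 4OHT array or 4OHT_Rosi 1. Of 18 non-canonical genes 2 rose and 7 fell after ethanol, among them Plcb1 (0.65), Prickle2 (-0.47) and Prickle1 (-0.49). The 2 rises were Plcb1 and the kinase Nlk (0.19), and 1 was left when any array other than EtOH 1, 4OHT_Rosi 2 and 4OHT_Rosi 3 was left out. After 4OHT 2 rose and 4 fell, with Plcb1 at 0.44, Camk2g at -0.37 and Prickle1 at -0.40, and 1 rise was left when any array other than EtOH 1, EtOH 3 and 4OHT_Rosi 2 was left out.

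**Figure D4:**
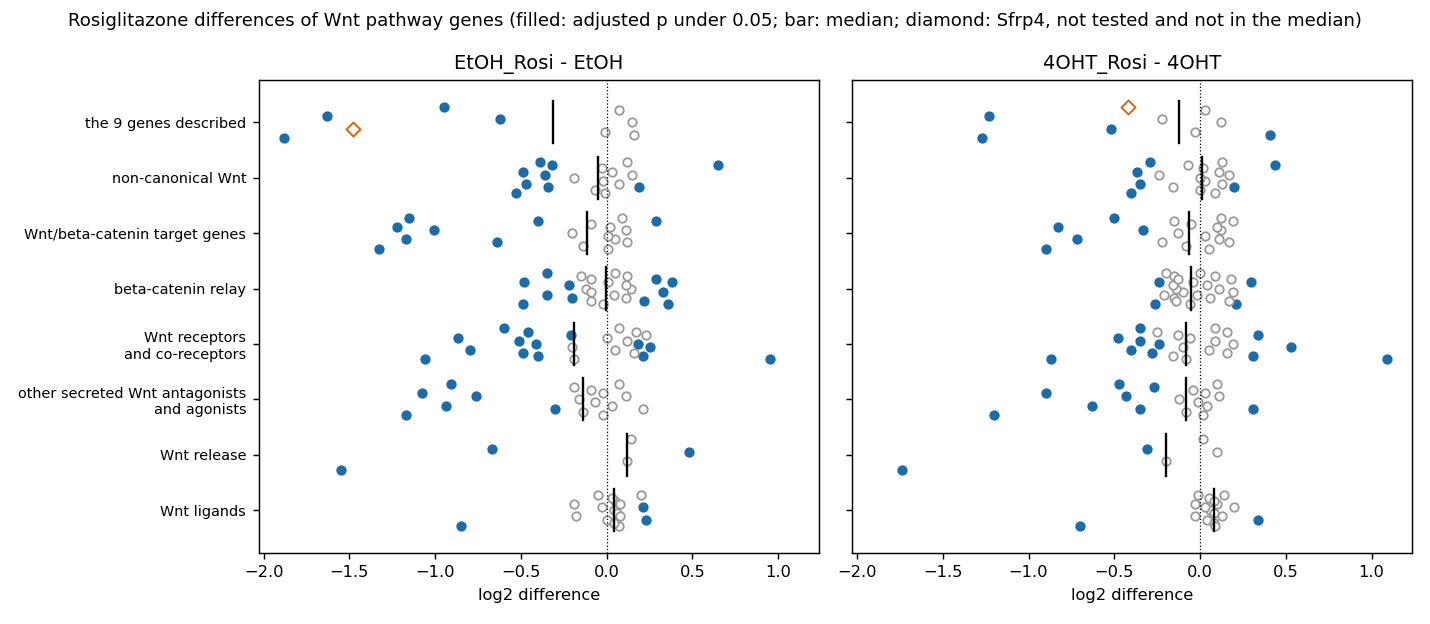
Rosiglitazone difference in log2 value (horizontal axis) after ethanol and after 4OHT for the genes of 7 Wnt lists and the 9 genes described; each point is a gene, filled where its adjusted p was under 0.05, and bars are medians. Differences below -1 appear among the release, secreted, receptor and target lists after ethanol, beside Sfrp1, Sfrp2 and Sfrp4.

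The 4OHT comparisons were read for the same lists, again not matched for level. Genes at or above the 50th percentile of level, fitted alone, gave 673 higher and 500 lower without rosiglitazone. With it they gave 1289 and 944. Without rosiglitazone 5 of the 118 rose and 3 fell, which is 4.24% and 2.54% beside 2.13% and 1.79% of all genes. These counts ranged from 1 to 6 and from 1 to 7 as single arrays were left out. The arrays that moved the first by over 1.5 times were EtOH 2, EtOH 3 and each 4OHT array, and those that moved the second were 4OHT 2, EtOH_Rosi 2 and 4OHT_Rosi 3. Draxin fell by 0.69 ± 0.07 (limma adjusted p = 0.000192), which held without any single array. The calls of Apcdd1 (0.32), Plcb1 (0.30), Amer1 (0.25), Fzd4 (0.26), Lgr4 (0.23), Ror2 (-0.33) and Bcl9 (-0.30) were each lost with single arrays. Without 4OHT 2 all of these but Plcb1 were lost, without EtOH 2 all but Apcdd1 and Ror2, and without EtOH 3 all but Plcb1 and Bcl9. With rosiglitazone 10 rose and 5 fell, which is 8.47% and 4.24% beside 4.65% and 3.38% of all genes: 6 rose without EtOH_Rosi 3, and 3 fell without 4OHT_Rosi 1 or 4OHT_Rosi 2. Porcn fell by 0.70 ± 0.11 (limma adjusted p = 0.00116) and Gpc3 by 0.59, while Gpc4 rose by 0.72. Both are glypicans, surface proteoglycans that can bind Wnts. The targets Ccnd1 (0.80 ± 0.08, limma adjusted p = 6.1e-05), Apcdd1 (0.59) and Ccn5 (0.56) rose, as did the receptors Lgr4 (0.41) and Fzd4 (0.32), and Tcf7l1 fell by 0.36. Of the 18 target genes 4 rose and 0 fell. Axin2 (0.01), Nkd1 (0.06), Rnf43 (-0.04), Sp5 (0.01), Lef1 (-0.08) and Notum (-0.06) were among those that did not pass. The rise of Fzd8 (0.34) was lost without EtOH_Rosi 3, those of Prickle2 (0.26) and Amer1 (0.21) without this and other arrays, and the fall of Trabd2b (-0.30) without any array but EtOH_Rosi 2 and 4OHT_Rosi 3. In the difference of the 4OHT differences 2 of the 118 passed and were higher, Draxin (0.59, limma adjusted p = 0.0229) and Ccn5 (0.82, limma adjusted p = 0.0241). Neither passed without EtOH 1, EtOH 2, 4OHT 1, 4OHT 2 or EtOH_Rosi 2, and 1 passed without EtOH 3, EtOH_Rosi 3 or 4OHT_Rosi 3. Smooth muscle markers moved after 4OHT with rosiglitazone, 4 of 10 higher and 1 lower, or 2 higher without 4OHT_Rosi 3 and 0 lower without 4OHT_Rosi 2, where 4.65% of all genes rose and 3.38% fell. Of 14 precursor markers 3 rose (F3, Zfp423 and Cd24a) and 1 fell (Pdgfra). The 3 were 1 without EtOH_Rosi 2, EtOH_Rosi 3 or 4OHT_Rosi 3, and the fall was lost without EtOH_Rosi 1, 4OHT_Rosi 1 or 4OHT_Rosi 2. Of 7 epithelial markers 0 passed in limma, 4 at an unadjusted p under 0.05, with a median of 0.32; 1 rose without EtOH_Rosi 1 and 2 without 4OHT_Rosi 2. The part of these lists in the pathway rises was not tested.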

How the data were processed

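Total RNA was measured on 12 Affymetrix expression arrays, in 4 groups of 3. The authors deposited log2 values of 41345 probe sets. Affymetrix Expression Console is named in the submitters' processing notes; its version, and how it summarised and normalized probes, are not given in any source used here. The scale was checked from the range (3.05 to 13.91) and the array medians (5.97 to 6.05).

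Probe sets with 1 gene symbol (23521; 1814 had several and 15820 none) were named through GEO's platform annotation and, by Entrez ID, RefSeq (23328 matched), and the brightest per gene by mean over 12 arrays was kept, with no filter on dim genes. A limma 3.58.1 model in R 4.3.3 was run on all 12 arrays together, with 1 mean for each group (lmFit and eBayes, 8 residual and 5.07 prior degrees of freedom). Benjamini-Hochberg adjustment ran over 22180 genes in each of 5 contrasts, and adjusted p under 0.05 was called. The ± values of differences are standard errors, and intervals are 95%. The number of arrays limits precision. The steps were tested on simulated data with independent arrays, which cannot show whether the spread here is technical.

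Tests of Sfrp4 under rosiglitazone were planned and are not given, since those comparisons share the groups it was chosen on. The 9 genes, the lists and the rule for naming genes were chosen with earlier results of these data known. From each Wnt list up to 3 called genes with the smallest p per comparison were named. Nlk, Znrf3, the target genes that did not pass and the single marker genes were named after their values were seen. RefSeq windows were available for 5 of the 9 genes, and Sfrp1, Sfrp4, Dkk3 and Wnt5a are not shown. Figures were drawn with matplotlib 3.10.9. The alternatives are given in the closing section.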

Additional observations from a re-analysis of the deposited data

How the results depend on the processing

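The rosiglitazone falls of Sfrp1, Sfrp2, Dkk2 and Dkk3 after ethanol, and of Sfrp1, Sfrp2 and Dkk3 after 4OHT, passed under every other setting tried on the brightest probe sets, apart from the left-out arrays already named. Array signal and 3 arrays a group limit the dim genes. Deviations of same-numbered arrays from their group means were correlated at -0.24 to 0.079, with 0 of 18 pairs over 0.1. With the replicate number as a block, 0 genes of the 8 rose after 4OHT with rosiglitazone in place of 1 (Wnt5a 0.31, limma adjusted p 0.0635). The block changed no other call among the 8 genes. The count of rises after 4OHT with rosiglitazone was also 0 in a fit of the 2 groups (Wnt5a limma adjusted p 0.163). It was 0 among genes at or above the 50th percentile of level, and 0 to 1 with each array left out. The same percentile filter left out Wnt5a, so 0 genes rose under rosiglitazone after 4OHT in place of 1. Without rosiglitazone 1 gene, Sfrp2, fell after 4OHT in place of 0 with the 2 groups alone or array weights.

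Differences that never passed changed sign near 0, and the cause was not tested. After 4OHT without rosiglitazone Sfrp5 was 0.00 after quantile normalization and 0.01 after median centring (-0.15 to 0.10 with each array left out). After 4OHT with rosiglitazone Sfrp2 was -0.01 with array weights, -0.01 as the mean of its probe sets and -0.09 in its other probe set (-0.19 to 0.31 with arrays left out), Dkk2 ranged from -0.03 to 0.28, Dkk3 from -0.01 to 0.27 and Wif1 from -0.06 to 0.11. Under rosiglitazone after ethanol Sfrp5 was 0.04 with array weights and 0.00 after median centring (-0.06 to 0.09), and Wif1 -0.02 with array weights (-0.01 to 0.16). Under rosiglitazone after 4OHT Sfrp5 ranged from -0.07 to 0.17 and Wif1 from -0.12 to 0.04. In the interaction Wif1 and Wnt10b were 0.01 with array weights, and Sfrp5 ranged from -0.06 to 0.18 and Wnt10b from -0.11 to 0.03.

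Over all genes, array weights gave 1167 higher and 1075 lower after 4OHT without rosiglitazone, in place of 472 and 396, and the 2 groups alone 620 lower. With rosiglitazone the 2 groups alone gave 499 and 330 in place of 1032 and 750. In the interaction, 116 and 107 became 59 and 57 with the replicate block, 192 and 201 with an intensity trend and robust eBayes, 198 and 198 with array weights, and 200 and 181 with the 50th percentile filter. With each array left out they ranged from 24 to 177 and from 27 to 173, the 4OHT counts without rosiglitazone from 276 to 522 and from 189 to 537, and the lower count with it from 452 to 739.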
